A study of Sus scrofa with 2 samples.

Results

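The genes of glycolysis and pyruvate handling were examined in the somatic cells of 2 porcine antral follicles. The set was drawn up by symbol with 34 genes that carry glucose to pyruvate, pass pyruvate to lactate or to the mitochondrion, or regulate these steps. Of them 27 were listed by symbol among the 22342 genes of the deposited data, and their UMIs were summed as the module. Another 4 members, ALDOA, MPC2, PDHA1 and PDK1, were listed only by Ensembl identifier and are given beside the sum but not in it. LDHB, SLC2A1 and SLC2A3 were found in neither way and were not analysed here, so the transport of glucose by SLC2A1 and SLC2A3 and the LDHB subunit of lactate dehydrogenase cannot be followed. Levels are given as CPM, the UMIs (unique molecule tags) of a gene per 1000000 UMIs of the same cells.

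Granulosa cells break glucose down to pyruvate and lactate, and both products are known to feed the oocyte, which uses glucose poorly by itself. Hexokinase traps glucose, phosphofructokinase commits it to glycolysis, and lactate dehydrogenase with the monocarboxylate transporters makes and moves lactate. Pyruvate dehydrogenase instead turns mitochondrial pyruvate into acetyl-CoA, and the PDK kinases switch that complex off. HIF1A, the oxygen-regulated transcription factor, is known to raise many of these genes when oxygen is low.

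Both follicles, named AF75 and AF76, came from 1 Landrace × Yorkshire pig aged 210 days that had received pregnant mare serum gonadotropin, and were described as healthy and over 7 mm wide. Somatic cells of each follicle made 1 library for 10x Genomics 3′ single-cell RNA sequencing, and neither follicle has a replicate. In the labels the follicles have the numbers 1 and 2, and AF75 and AF76 are their names in the deposited data. Every comparison below is between single libraries of 1 animal and comes without a test or a p-value. Intervals are exact 95% intervals and cover counting error only.

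Barcodes with 2000 to 5000 genes and under 7% mitochondrial UMIs were kept, which left 9362 of 14289 in AF75 and 7843 of 15548 in AF76. They held 111226504 and 108920601 UMIs, with a median of 11255 UMIs per cell in AF75 and 13902 in AF76. Among the kept cells, 18 barcode sequences occurred in both libraries. Integrated clustering without the module genes gave 6 clusters. The largest carried the mural granulosa markers and is called mural-like (6413 cells of AF75 and 5985 of AF76). Of the other clusters, the one with the highest mean log2 fold of cumulus markers over the rest was called cumulus-like (2293 and 858 cells). It had SHAS2 and THBS1 among its 10 leading genes, and a cycling-like cluster (456 and 121 cells) had TOP2A and CDCA8. The SCG2 cluster (176 and 172 cells), the CEMIP cluster (0 and 681 cells) and an interferon-response cluster (24 and 26 cells) are called by their leading genes. Granulosa markers, mostly INHA, summed to 21914 CPM over AF75 and 23733 CPM over AF76, but to 2901 CPM in the CEMIP cluster.

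The cumulus-like cluster was picked by its cumulus markers, so their excess there is no support for its name. The size of that excess differed between the follicles. Cumulus-like cells carried 10137 CPM of summed cumulus markers in AF75 against 1006 CPM in the mural-like cells of that follicle, but 1613 CPM against 533 CPM in AF76. VCAN, a matrix proteoglycan of the expanding cumulus, had 5874 CPM there in AF75 but 1145 CPM in AF76, and SHAS2, a hyaluronan synthase, at 265 CPM and 14.4 CPM. When the follicles were clustered without integration, 2159 of the 2293 cells of AF75 stayed in a cumulus-like cluster, whereas 769 of the 858 cells of AF76 joined the largest cluster and 19 stayed in the cumulus-like one. Values for the cumulus-like cells of AF76 thus rest on the integration of the follicles.

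The bases before the annotated gene start of members that differ in behaviour are shown. Marked in them are the core letters of the element that HIF proteins and E-box factors are known to bind. The letters ACGTG were searched on both strands of the 250 bases before each RefSeq gene start of Sscrofa11.1. They occurred in 3662 of 19556 such windows (18.7%) and in 13 of the 27 windows of the summed members (48.1%), and the median GC content of these windows was 57.6% and 63.6%. Matches are in capitals, and a CACGTG is a match on each strand.
ENO1, chr6:69401665-69401914, minus strand: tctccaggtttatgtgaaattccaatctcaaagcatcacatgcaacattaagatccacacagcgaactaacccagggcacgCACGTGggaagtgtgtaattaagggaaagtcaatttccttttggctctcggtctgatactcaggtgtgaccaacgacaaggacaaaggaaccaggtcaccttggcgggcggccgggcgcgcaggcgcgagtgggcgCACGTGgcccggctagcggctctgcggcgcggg
PGK1, chrX:62187222-62187471, plus strand: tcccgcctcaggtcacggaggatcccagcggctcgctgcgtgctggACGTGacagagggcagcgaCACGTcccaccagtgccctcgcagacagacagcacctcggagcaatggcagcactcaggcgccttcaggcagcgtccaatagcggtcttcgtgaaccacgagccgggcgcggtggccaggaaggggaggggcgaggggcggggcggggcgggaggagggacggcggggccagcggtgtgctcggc
HK2, chr3:68231188-68231437, minus strand: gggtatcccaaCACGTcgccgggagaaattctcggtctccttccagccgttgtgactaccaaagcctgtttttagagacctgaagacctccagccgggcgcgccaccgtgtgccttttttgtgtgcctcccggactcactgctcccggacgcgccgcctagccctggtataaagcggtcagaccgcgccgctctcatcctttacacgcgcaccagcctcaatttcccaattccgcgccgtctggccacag
PDK4, chr9:75260135-75260384, minus strand: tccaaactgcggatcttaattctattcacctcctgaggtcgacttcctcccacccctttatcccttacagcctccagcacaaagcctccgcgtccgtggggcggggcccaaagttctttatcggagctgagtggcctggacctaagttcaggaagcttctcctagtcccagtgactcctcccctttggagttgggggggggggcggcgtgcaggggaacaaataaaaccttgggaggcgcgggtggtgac
Members with a match and members without one stood on both sides. ENO1, PGK1 and HK2 stood higher in the cumulus-like cells of AF75 than in its mural-like cells, as given below. HK1, PFKL, PKM, PGAM1 and BNIP3, which have a match too, also stood higher. So did SLC16A3, LDHA, PFKP, TPI1 and HIF1A, which have no match. PDK4 and PFKFB4 stood lower there and have none, and PDHB stood lower and has 1. By the RefSeq annotation the gene bodies lie at chr6:69385879-69401664 for ENO1, chr3:68155656-68231187 for HK2 and chr9:75246956-75260134 for PDK4, each ending where its window begins. A match describes the letters and is not a measured binding site. A window before an annotated start need not hold the promoter in use, so a window without a match does not show that the gene lacks the element. The windows of LDHA and SLC16A3 had 47.6% and 47.2% GC.

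The module took 0.981% of all UMIs in AF75 and 0.891% in AF76. Its level was 9813 CPM in AF75 and 8911 CPM in AF76, a ratio of 0.908 (0.906 to 0.911). Only 4 members, GAPDH, PDK4, ENO1 and PKM, held 78.7% of the module UMIs in AF75 and 82.4% in AF76. PDK4 alone went the other way from the other abundant members, and without it the sum was 7710 CPM in AF75 and 6224 CPM in AF76, a ratio of 0.807 (0.805 to 0.810). AF76 therefore held less RNA of the pathway per UMI sequenced and more of PDK4. The glycolytic steps are 18 members from hexokinase to lactate dehydrogenase, with PGM1, PFKFB3 and PFKFB4 counted in and ALDOA, listed by identifier, left out. They gave 6918 CPM in AF75 and 5642 CPM in AF76.

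**Figure D1:**
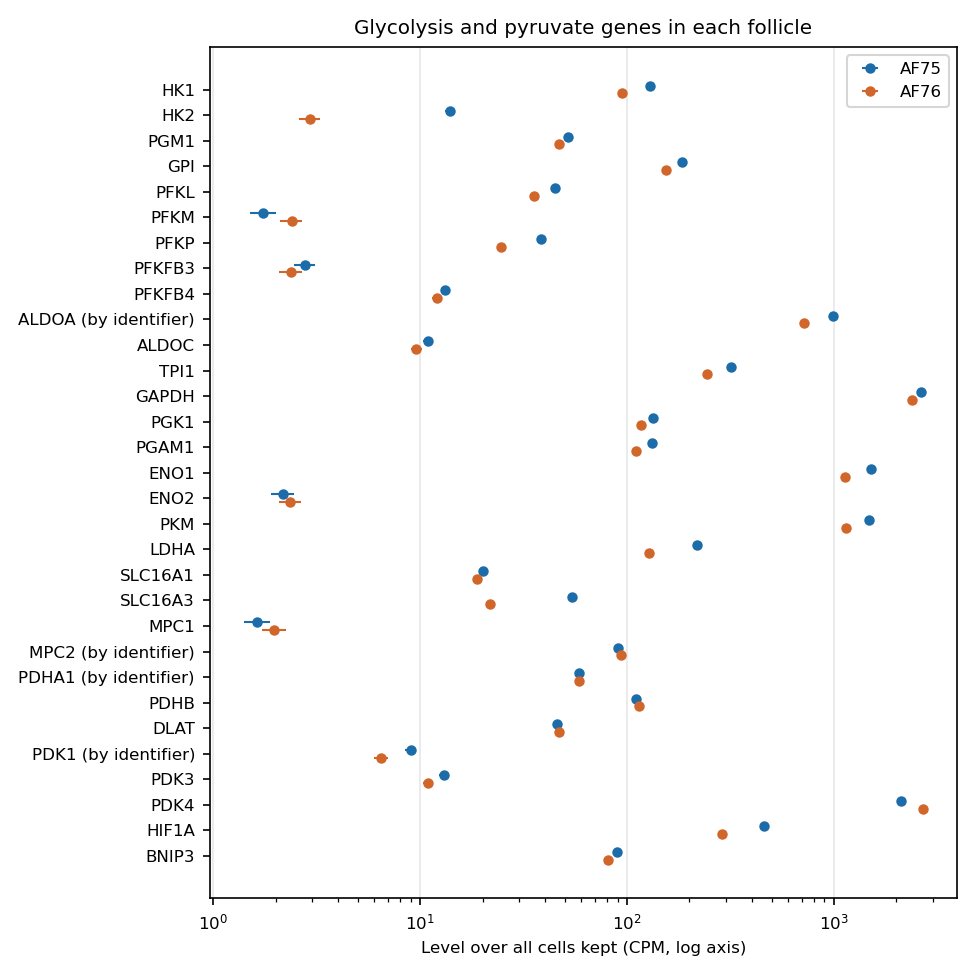
Level of each gene over all cells kept, in CPM on a log axis, with AF75 in blue and AF76 in orange; bars are exact 95% counting intervals. GAPDH, PDK4, ENO1 and PKM lie above 1000 CPM in both follicles, and HK2, SLC16A3, LDHA, HIF1A and PFKP are the members that lie at least 1.5-fold lower in AF76.

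Of the 27 members, all of which reached 200 UMIs in a follicle, 5 stood at least 1.5-fold lower in AF76 and none stood as much higher. Among 10049 genes with 200 UMIs in a follicle, 3.85% were that much lower and 1.8% that much higher. The members' median log2 ratio was -0.23, against -0.0019 over all those genes, and 21 members lay below 1 and 6 above. HK2, the inducible hexokinase, was 13.9 CPM in AF75 and 2.92 CPM in AF76, a ratio of 0.210 (0.185 to 0.237). SLC16A3, the exporter of lactate, was 54.1 CPM and 21.7 CPM (ratio 0.400, 0.382 to 0.420). LDHA, which makes lactate from pyruvate, was 218 CPM and 128 CPM (ratio 0.586, 0.573 to 0.598). HK2 and SLC16A3 thus held the 2 widest gaps between the follicles among the 27 members. HIF1A was 458 CPM and 287 CPM, a ratio of 0.627. PFKP, the platelet form of phosphofructokinase, was 38.4 CPM and 24.5 CPM, a ratio of 0.638 that lost its place past 1.5-fold in 3 of the 8 alternatives that recomputed it. Without the CEMIP cluster 7 members were at least 1.5-fold lower, with ENO2 and PFKFB3 (ratio 0.661) added. The share of all genes past the fold was not counted without that cluster, so this number has no background beside it.

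Among the other hexose phosphate members, HK1, the housekeeping hexokinase, was 129.7 CPM in AF75 and 94.8 CPM in AF76. HK2 made up 9.69% of hexokinase UMIs in AF75 (9.24 to 10.2) and 2.99% in AF76 (2.67 to 3.33). PGM1, which links glycogen to glycolysis, was 51.6 CPM and 46.6 CPM. The hexokinase balance was thus further towards HK1 in AF76. GPI, which makes fructose 6-phosphate, was 183.9 CPM and 153.9 CPM, and PFKL, the liver form of phosphofructokinase, 44.9 CPM and 35.3 CPM. PFKM, the muscle form, was nearly absent at 1.74 CPM and 2.39 CPM. The regulators of phosphofructokinase were low too, with PFKFB3 at 2.76 CPM and 2.36 CPM and PFKFB4 at 13.2 CPM and 12.0 CPM. All 3 phosphofructokinase genes were listed, and PFKL and PFKP shared nearly all of their UMIs, with PFKP at 45.1% in AF75 and 39.3% in AF76. The hexose phosphate members together gave 480 CPM in AF75 and 375 CPM in AF76.

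The triose steps held the most RNA, with 4739 CPM in AF75 and 4001 CPM in AF76. GAPDH was 2629 CPM in AF75 and 2388 CPM in AF76 (ratio 0.908), and ENO1, the common enolase, 1511 CPM and 1129 CPM (ratio 0.747). TPI1, the triose phosphate isomerase, was 319 CPM and 244 CPM. These 3 genes differed between follicles in unequal measure. PGK1, a step that yields ATP, was 133.8 CPM and 117 CPM, and PGAM1, the mutase after it, 132.4 CPM and 111 CPM. The brain enolase ENO2 and the brain aldolase ALDOC were low, at 2.17 CPM and 2.35 CPM for ENO2 and 11.0 CPM and 9.57 CPM for ALDOC. Without the CEMIP cluster, which only AF76 holds, ENO2 was 1.37 CPM in AF76 and its ratio turned to 0.634. The main aldolase ALDOA, listed by identifier, was 993 CPM and 715 CPM (ratio 0.720).

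At the pyruvate end, PKM, the last ATP-yielding enzyme, was 1481 CPM in AF75 and 1138 CPM in AF76 (ratio 0.769). SLC16A1, a monocarboxylate transporter that can move lactate either way, was 20.1 CPM and 18.7 CPM, so SLC16A3 took 72.9% of the UMIs of the pair in AF75 (71.9 to 73.8) and 53.6% in AF76 (52.1 to 55.1). PDK4 was 2103 CPM in AF75 and 2687 CPM in AF76 (ratio 1.28, 1.27 to 1.28) and held over 99% of the UMIs of the PDK3 and PDK4 pair, 99.4% and 99.6%. PDK3 was 13.0 CPM and 10.9 CPM, and PDK1, listed by identifier, 9.01 CPM and 6.46 CPM. Of the kinases of pyruvate dehydrogenase among the members, PDK4 was thus by far the most abundant in UMIs. The complex itself was level between the follicles, with PDHB at 110.6 CPM and 114.3 CPM, DLAT at 45.6 CPM and 46.7 CPM, and PDHA1, by identifier, at 58.3 CPM and 58.5 CPM. The mitochondrial pyruvate carrier was carried by MPC2 in UMIs (90.4 CPM and 93.0 CPM, by identifier), while MPC1 stood at 1.63 CPM and 1.96 CPM. BNIP3, a mitophagy gene known to answer to HIF1A, was 89.3 CPM and 81.0 CPM. UMIs come from the 3′ ends of transcripts and a gene model that misses its 3′ end loses them, so levels of different genes are compared only as UMIs.

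The follicle difference was not spread evenly over the cells. Within the mural-like cluster the module was 8886 CPM in AF75 and 8933 CPM in AF76, a ratio of 1.01 (1.00 to 1.01), and the glycolytic steps were 5749 CPM and 5456 CPM. Of the 23 members that passed 200 UMIs there, 1 was at least 1.5-fold lower in AF76 and none higher, beside 1.48% and 0.359% of 9482 genes, and the median log2 ratio was -0.06 for the members and -0.04 for all genes. The 1 member was HK2, at 4.13 CPM and 2.52 CPM. LDHA in these cells stood at 122 CPM and 118 CPM, and SLC16A3 18.2 CPM and 18.8 CPM. HIF1A, within 1.5-fold, was 342 CPM and 264 CPM. Mural-like cells of both follicles were therefore nearly alike in these genes, with PDK4 higher in AF76 at 2913 CPM than in AF75 at 2496 CPM. These cells were deeper in AF76, with medians of 14215 and 11355 UMIs. From the shallowest to the deepest of 4 equal groups of mural-like cells, the glycolytic steps went from 5603 CPM to 5889 CPM in AF75 and from 5495 CPM to 5451 CPM in AF76, and PDK4 from 2214 CPM to 2617 CPM and from 2417 CPM to 3158 CPM.

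**Figure D2:**
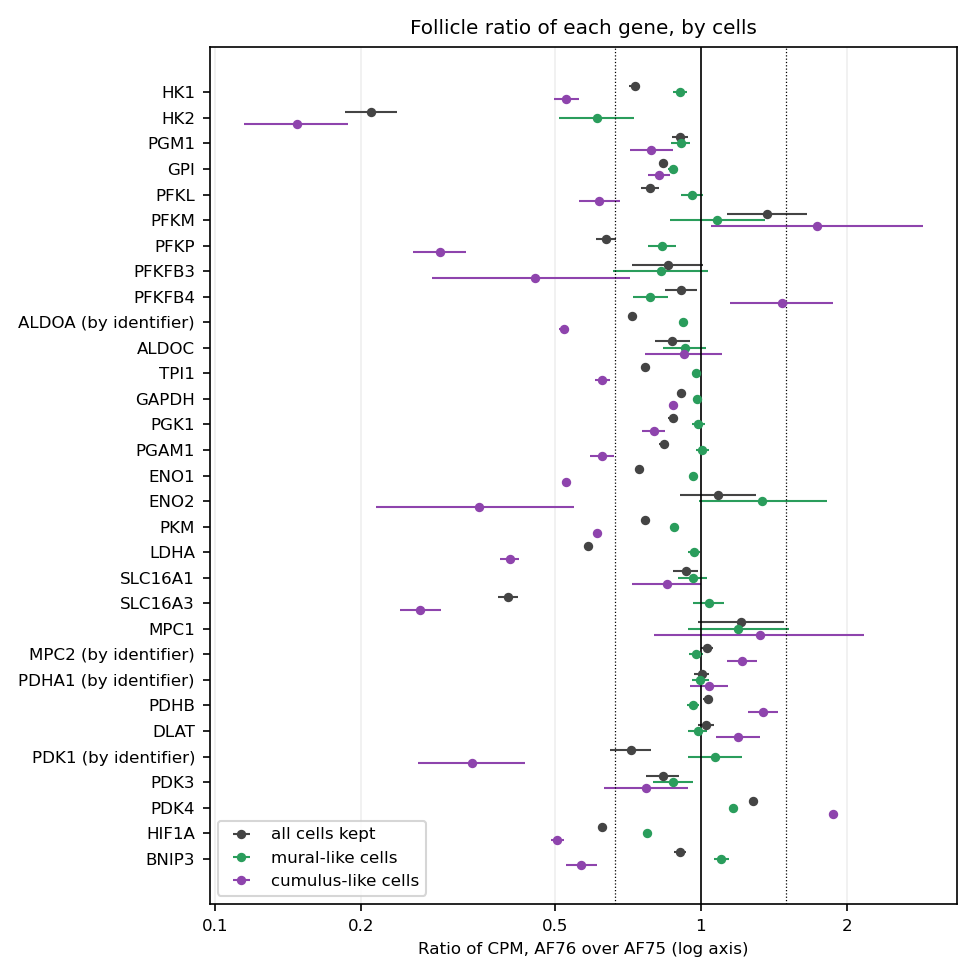
Ratio of CPM in AF76 over AF75 for each gene on a log axis, for all cells (grey), mural-like cells (green) and cumulus-like cells (purple); bars are exact 95% counting intervals and dotted lines mark 1.5-fold. Of the green points with 200 UMIs only HK2, at 0.611, lies past 1.5-fold, whereas purple points reach 0.147 for HK2 and 1.87 for PDK4.

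In the cumulus-like cluster the module was 12177 CPM in AF75 and 9569 CPM in AF76, a ratio of 0.786 (0.781 to 0.791). Of 22 members that passed, 12 were lower and 1 higher in AF76, where 7.73% of 7554 genes were lower and 6.57% higher, and the median log2 ratio was -0.67 against 0.03 for all genes. These cells held 25543028 UMIs in AF75 and 12716332 in AF76, so scarce members high in AF75 passed 200 UMIs more easily. HK2 passed on 981 UMIs in AF75, with 72 in AF76. This favoured lower calls among the members, and all genes went through the same filter. HK2 was 38.4 CPM and 5.66 CPM (ratio 0.147), SLC16A3 140 CPM and 37.0 CPM (ratio 0.264), and PFKP 77.4 CPM and 22.5 CPM (ratio 0.290). LDHA was 458 CPM and 185 CPM (ratio 0.404). HK2 and SLC16A3 showed the widest gaps here too. The other lower members, by size of the gap, were HIF1A (ratio 0.507), ENO1 (0.527), HK1 (0.529), BNIP3 (0.567), PKM (0.612), PFKL (0.618), PGAM1 (0.626) and TPI1 (0.627). PDK4 was the 1 member that stood higher (1295 CPM in AF75, 2418 CPM in AF76). The summed cumulus markers, 10137 CPM and 1613 CPM in these cells, moved with this result. So did the mural granulosa markers, at 2693 CPM and 6293 CPM against 5968 CPM and 8421 CPM in mural-like cells, and the red blood cell markers, at 1.76 CPM and 171.8 CPM, and the part of these in it was not tested.

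Cumulus-like cells were next set against the mural-like cells of the same follicle. In AF75 the module was 1.37 times its mural-like level (1.36 to 1.38), and 1.70 times without PDK4. Of 23 members 13 were higher and 3 lower, beside 7.38% and 13.5% of 9378 genes, with a median log2 ratio of 0.76 for the members and -0.09 for all genes. HK2 was 38.4 CPM in cumulus-like against 4.13 CPM in mural-like cells (ratio 9.29, 8.18 to 10.6), and SLC16A3 140 CPM against 18.2 CPM (ratio 7.71, 7.24 to 8.21). LDHA was 458 CPM against 122 CPM (ratio 3.76), and PFKP 77.4 CPM against 24.1 CPM (ratio 3.22). First, committed and last steps of fermentation were all among the higher members. The others were ENO1 (2.25), HIF1A (2.20), TPI1 (2.15), HK1 (2.07), PFKL (2.03), PKM (1.79), PGAM1 (1.78), BNIP3 (1.70) and PGK1 (1.57). GAPDH was only 1.26 times higher, at 3055 CPM against 2430 CPM. The 3 lower members were PFKFB4 (ratio 0.413), PDK4 (1295 CPM against 2496 CPM, ratio 0.519) and PDHB (74.9 CPM against 123.3 CPM, ratio 0.607). PDHB is part of the pyruvate dehydrogenase complex, and PDK4 is a kinase that switches this complex off. Of the genes listed by identifier, PDK1 (ratio 2.89) and ALDOA (2.17) were higher too, and PDHA1 and MPC2 lay within 1.5-fold.

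In AF76 the same contrast was shallow. The module was 1.07 times its mural-like level (1.06 to 1.08), and the sign of this value turned when cells with 500 to 6000 genes were clustered, in 146 cumulus-like cells. Of 23 members 3 were higher and none lower, beside 3.31% and 2.75% of 9419 genes, and the median log2 ratio was 0.17 against 0.0011 over all genes. HK2 was 5.66 CPM against 2.52 CPM, SLC16A3 37.0 CPM against 18.8 CPM, and LDHA 185 CPM against 118 CPM. These were also the first 3 of the higher members in AF75, at smaller ratios of 2.24, 1.97 and 1.57. PDK4 was 2418 CPM against 2913 CPM. A difference between the follicles and one between their libraries cannot be told apart here.

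**Figure D3:**
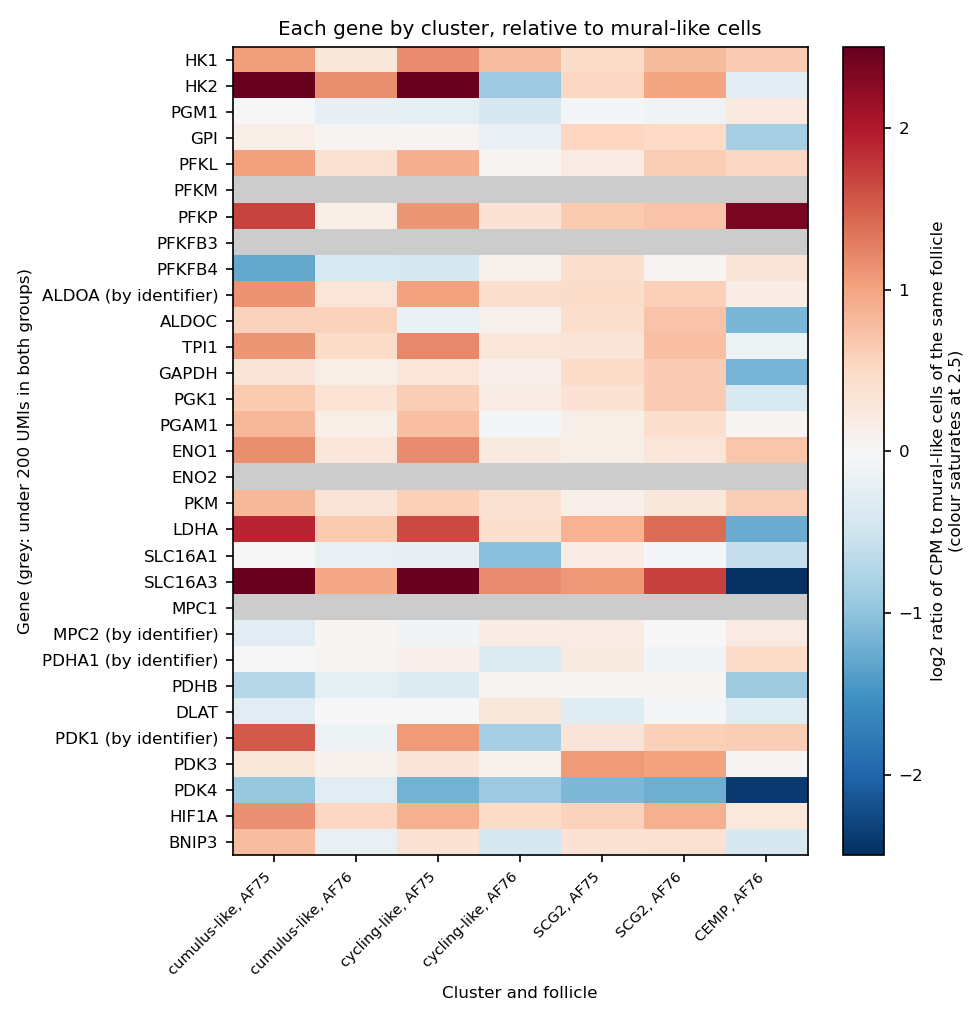
Log2 ratio of CPM in each cluster to that of mural-like cells of the same follicle, red for higher and blue for lower, with grey where neither group reached 200 UMIs. Members past 1.5-fold higher number 13 in the cumulus-like and 12 in the cycling-like cells of AF75 and 12 in the SCG2 cells of AF76, and 4 or fewer in each other column, and PDK4 is blue in all 7 columns, at ratios from 0.190 in the CEMIP cells to 0.830 in the cumulus-like cells of AF76.

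Clusters depend on a boundary, so cells were also ordered by the summed CPM of 4 cumulus markers, VCAN, SHAS2, TNFAIP6 and THBS1, with no clustering. In AF75 the glycolytic steps stood at 5474 CPM in the 2879 cells under 500 CPM of markers and at 12043 CPM in the 1060 cells at 10000 CPM or more. LDHA went from 104 CPM to 652 CPM, SLC16A3 from 12.4 CPM to 217.6 CPM and HK2 from 2.68 CPM to 56.2 CPM. All 4 of these values were higher in each bin than in the bin before it. PDK4 ran the other way, from 2566 CPM to 1012 CPM. In AF76 the glycolytic steps ran from 5431 CPM in the lowest bin to 6152 CPM in the bin of 2000 to 5000 CPM and were 5609 CPM in the 122 cells of the bin above it. LDHA stayed between 118 CPM and 157 CPM in these 5 bins. HK2 was 2.42, 2.94, 3.82, 5.73 and 3.94 CPM in turn, and SLC16A3 was 18.8, 23.2, 31.3, 28.4 and 21.7 CPM. PDK4 was 2827 CPM in the lowest bin, between 2377 CPM and 2429 CPM in the next 3 and 3238 CPM in the fifth. The low counts of HK2 and SLC16A3 in AF76 thus peaked in the middle bins. The 14 cells of AF76 at 10000 CPM or more are too few to place, and the trend of AF76 is given without them. In the lowest bin AF75 and AF76 held 5474 and 5431 CPM of the glycolytic steps and 2.68 and 2.42 CPM of HK2. SLC16A3 was 12.4 and 18.8 CPM there. For LDHA the order of the follicles turned between the bins of low and of high marker level. In the 3 lowest bins LDHA was 104, 123 and 152 CPM in AF75 against 118, 133 and 157 CPM in AF76. From 2000 to 5000 CPM of markers it was 227 CPM against 154 CPM, and from 5000 to 10000 CPM it was 396 CPM against 124 CPM. The bins pooled the cells of all clusters. CEMIP cells, found in AF76 alone, carried 1475 CPM over the whole cumulus marker list. Cumulus-like and mural-like cells of AF76 carried 1613 CPM and 533 CPM. CEMIP cells held less LDHA, SLC16A3 and PDK4 than mural-like cells, as given below. Their part in the bins of AF76 was not tested.

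**Figure D4:**
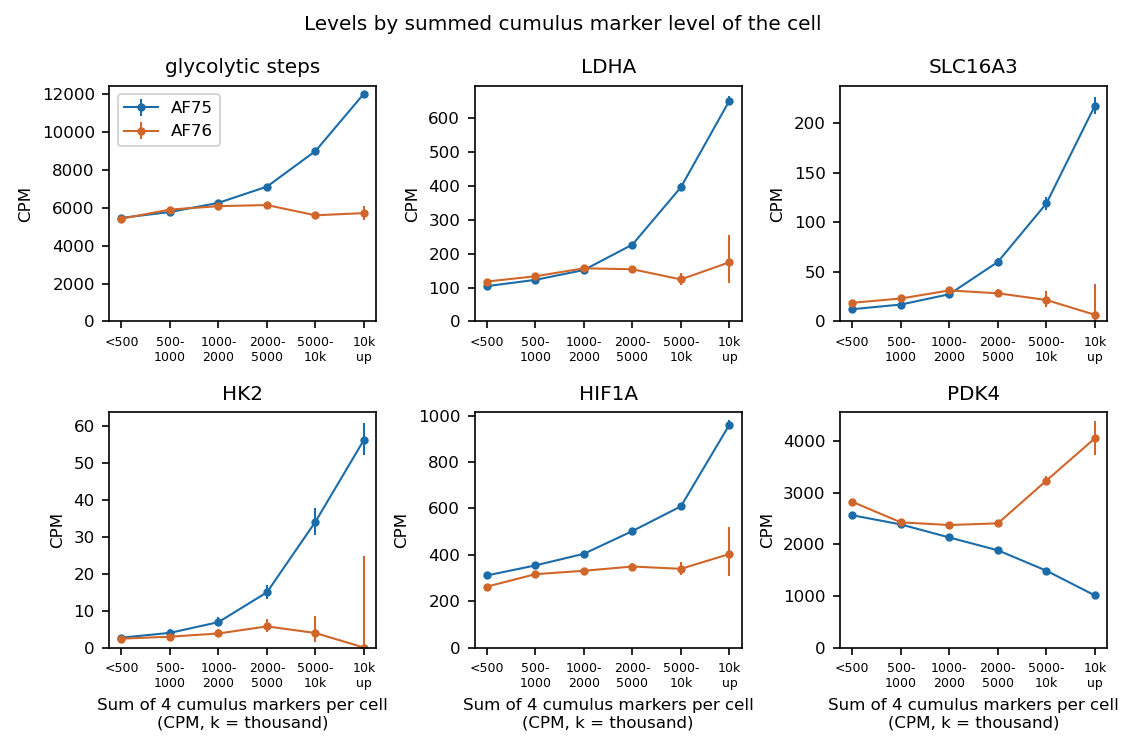
Levels in CPM of the 18 glycolytic members together and of LDHA, SLC16A3, HK2, HIF1A and PDK4, in 6 bins of the summed level of 4 cumulus markers per cell, for AF75 (blue) and AF76 (orange) with exact 95% counting intervals. AF75 climbs from 5474 to 12043 CPM for the glycolytic members while PDK4 runs from 2566 down to 1012 CPM. In AF76 the glycolytic members lie between 5431 and 6152 CPM, HK2 and SLC16A3 peak at 5.73 and 31.3 CPM in middle bins, and the last bin holds 14 cells. Bins pool the cells of all clusters, and the CEMIP cluster is found in AF76 alone.

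Cycling-like cells, which are preparing for or passing through division, followed the cumulus-like pattern in AF75. The module was 11385 CPM there and 8551 CPM in AF76. Relative to mural-like cells of AF75, 12 of 23 members were higher and 1 lower (9.49% and 11.1% of 9387 genes), with a median log2 ratio of 0.59 against -0.02. HK2 was 32.8 CPM, SLC16A3 132 CPM and LDHA 380 CPM in these cells, and PDK4 was the lower member at 1101 CPM. In AF76, 2 members, SLC16A3 at 42.6 CPM and HK1 at 149 CPM, were higher and 3 lower (8.97% and 9.88% of 9432 genes), with a median of 0.11 against 0.0042. PDK4 at 1561 CPM and SLC16A1 at 9.42 CPM were lower, and so was HK2 on 3 UMIs in 121 cells, a ratio of 0.533 with an interval of 0.109 to 1.58. Between the follicles 10 of 19 members were lower in AF76 and none higher (6.15% and 2.41% of 4762 genes), with a median of -0.67 against 0.0064. These cells held 7357726 UMIs in AF75 and 2228519 in AF76. Scarce members high in AF75 thus passed 200 UMIs more easily, as HK2 did on 241 UMIs against 3. This favoured lower calls among the members, and all genes went through the same filter. The cycling-like cells of AF75 had 5827 CPM of summed cumulus markers and those of AF76 had 693 CPM. The part of these markers in the gap between the follicles was not tested.

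The SCG2 cluster, with ALDH1A2, SPP1 and CXCL14 among its leading genes, did not follow the order of the follicles over all cells. Its module level of 9295 CPM in AF75 stood against 9972 CPM in AF76, a ratio of 1.07 (1.05 to 1.09). The module was not lower in AF76 in mural-like cells either (ratio 1.01). Without PDK4 the ratio was 1.07 (1.05 to 1.09) in the SCG2 cells but 0.942 (0.938 to 0.946) in mural-like cells. Of 13 SCG2 members that passed between follicles none was lower or higher (0.82% and 0.922% of 1952 genes), with a median of 0.12 against 0.01. Against mural-like cells, 4 members were higher and 1 lower in AF75 (6.6% and 7.62% of 9334 genes), with a median of 0.37 against 0.02. In AF76, 12 were higher and 1 lower (6.34% and 7.6% of 9419 genes), with a median of 0.62 against 0.0005. SLC16A3 was 38.4 CPM in AF75 and 61.3 CPM in AF76, LDHA 223 CPM and 308 CPM, and PDK3, a kinase of pyruvate dehydrogenase, 25.1 CPM and 21.3 CPM. PDK3 was 2.09 times its mural-like level in AF75 and 2.02 times in AF76. The lower member was PDK4 in both, at 1143 CPM and 1242 CPM. GAPDH reached 3693 CPM in AF76, its highest level of any cluster with over 100 cells. Summed cumulus markers were 1315 CPM here in AF75 and 1027 CPM in AF76, against 1006 CPM and 533 CPM in mural-like cells, and their part in this was not tested.

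The CEMIP cluster held cells of AF76 alone, and what belongs to the cells and what to the library cannot be told apart. Its module was 6442 CPM (ratio to mural-like 0.721, 0.713 to 0.729), but 5890 CPM against 6020 CPM without PDK4, which was 552 CPM. Of 23 members 4 were higher and 7 lower (38.5% and 14.8% of 9445 genes), and the median was -0.28 against 0.35 over all genes. Most UMIs of this comparison were mural-like, so members low in the CEMIP cells could pass 200 UMIs through the mural-like group. Scarce members that were high in the CEMIP cells, given below, were left out. These counts and the median thus describe only the members that passed. PFKP was 104 CPM (ratio 5.20), ENO1 1717 CPM, HK1 137 CPM and PKM 1636 CPM. GAPDH was 1068 CPM (ratio 0.449), LDHA 49.95 CPM, SLC16A3 2.90 CPM, GPI 87.3 CPM, ALDOC 4.15 CPM and PDHB 64.3 CPM. The isoform mix thus differed from that of the granulosa-like clusters, with PFKP at 65.2% of phosphofructokinase UMIs (61.7 to 68.5). ENO2 at 23.4 CPM, PFKFB3 at 13.9 CPM and PFKM at 8.50 CPM were under 200 UMIs in both groups and stood at 17.7, 7.69 and 4.12 times their mural-like level. These cells were shallower, with a median of 6435 UMIs against 14215 in mural-like cells. Their immune markers summed to 77.3 CPM, with 1 of 9 at 0, and their theca or stromal markers to 312.8 CPM, with none of 9 at 0, against 5.58 CPM and 14.4 CPM in mural-like cells, and the part of such cells was not tested.

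The interferon-response cluster of 24 and 26 cells held 8501 CPM and 8657 CPM of the module, near the mural-like level.

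**Figure D5:**
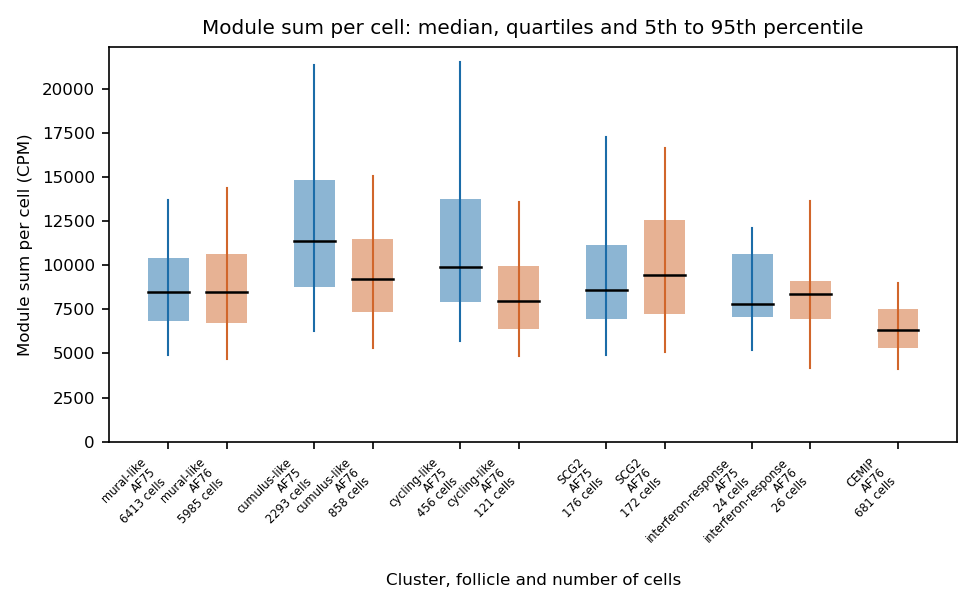
Module sum per cell in CPM by cluster and follicle; the black line is the median, the box spans the quartiles and the thin line the 5th to 95th percentiles over cells. Cumulus-like cells of AF75 have the highest median at 11350 CPM and the CEMIP cells of AF76 the lowest at 6331 CPM.

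Cells of 1 follicle differed widely. Over all cells the module per cell had a median of 9067 CPM in AF75 and 8312 CPM in AF76, from 104 and 115 module UMIs per cell. The 10th and 90th percentiles were 5862 CPM and 14523 CPM in AF75, and 5264 CPM and 12811 CPM in AF76. The ranges of the follicles therefore overlapped over most of their width. After every cell was thinned to 5000 UMIs, the variance of the module count was 7.70 times its mean in AF75 and 5.82 times in AF76, where counting error alone gives 1. PDK4 was the most uneven member, at 12.0 times in AF75 and 12.2 times in AF76, and it stayed at 11.6 times within the mural-like cells of each. ENO1 was at 6.62 times in AF75 but 2.68 times in AF76, and GAPDH at 2.94 and 3.51 times. Members under 0.3 UMIs per thinned cell stayed between 0.991 and 1.95 times in either follicle.

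PDK4 and the glycolytic steps ran opposite ways from cell to cell in both follicles. Mural-like cells were ranked by PDK4 in the thinned counts and cut into 5 groups. The glycolytic steps were 6171 CPM in the group of lowest PDK4 of AF75 and 5118 CPM in the highest, and 5999 CPM and 4757 CPM in AF76, with each group lower than the one before. LDHA was 141 CPM and 99.7 CPM in AF75 and 140 CPM and 99.7 CPM in AF76 at these ends. PDK4 itself spanned 83.1 CPM to 6309 CPM in AF75 and 117 CPM to 6934 CPM in AF76. The run had the same direction in both follicles. Since the UMIs of a thinned cell have a fixed sum, some of any opposite run follows from that sum, and its share was not tested.

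Members were also correlated with the sum of all the others over thinned cells, as a description, since cells of a library share depth and free RNA. Pearson's r over 9343 cells of AF75 and 7738 of AF76 was highest for LDHA (0.43 and 0.25), SLC16A3 (0.40 and 0.20) and TPI1 (0.37 and 0.21). PDK4 was lowest (-0.30 and -0.18). Among 1550 genes with at least 0.5 UMI per thinned cell, the 10 most like the module sum were ENSSSCG00000011147, MIF, VCAN, TNFAIP6, SBSN, MRO, MRPS6, INHBA, KTN1 and ENSSSCG00000006395. Their r was 0.24 to 0.37 in AF75 and 0.03 to 0.17 in AF76. VCAN and TNFAIP6 are cumulus markers, with r of 0.37 and 0.33 in AF75 but 0.03 and 0.07 in AF76. The 5 least like it were ACTB, RPS20, IGFBP2, DKK3 and COX1. All values in AF76 are weak.

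Other genes of the pathway are given as counts, beside the shares of all genes past 1.5-fold. Between follicles over all cells none of 19 passing genes of the glycolytic side and gluconeogenesis, of 6 of the pentose phosphate pathway and of 14 of the citrate cycle lay past 1.5-fold, where 3.85% of all genes were lower and 1.8% higher, so few or no calls are the background for lists of this size. Of 15 further genes known to answer to low oxygen none was higher and 2 were lower in AF76, VEGFA, the angiogenic growth factor (27.8 CPM and 17.6 CPM), and ANKRD37, a HIF target (3.07 CPM and 1.18 CPM). In the mural-like cells none of 14 was past 1.5-fold either way. Their median log2 ratio was 0.03 over all cells and 0.08 in the mural-like cells, but -0.29 in the cumulus-like cells, where 3 of 14 were lower in AF76 and none higher.

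In the cumulus-like cells of AF75, 7 of the 15 low-oxygen genes were higher than in mural-like cells and 3 lower, with a median log2 ratio of 0.54. Over all genes in this comparison 7.38% were higher and 13.5% lower, and the median was -0.09. ANKRD37 was 8.18 CPM against 0.921 CPM, VEGFA 49.3 CPM against 18.9 CPM and MXI1, a MYC antagonist, 43.6 CPM against 18.6 CPM. The other higher ones were ADM, P4HA1, P4HA2 and KDM3A. DDIT4, an inhibitor of mTORC1, was lower at 315 CPM against 742 CPM, as were LOX (314 CPM against 618 CPM) and CA9. In AF76 MXI1 was higher and the same 3 genes, DDIT4, LOX and CA9, were lower. HKDC1, a further hexokinase, was 41.8 CPM against 17.9 CPM in AF75 and 25.1 CPM against 15.5 CPM in AF76. Members of the citrate cycle lay within 1.5-fold in AF76, and in AF75 all but OGDH, at 180 CPM against 336 CPM, did so. SLC16A7, a transporter with high affinity for pyruvate, was lower in both, at 1.45 CPM against 4.76 CPM and 1.89 CPM against 5.44 CPM. SLC16A3 and SLC16A7 thus differed in opposite directions in the same cells. In all, 2 of 18 passing genes of the glycolytic side, HKDC1 and BPGM, were higher in the cumulus-like cells of AF75 and 5 were lower, SLC16A7, GPD2, PDK2, PFKFB2 and SLC2A8, beside the same shares. In AF76 HKDC1 was the 1 higher and SLC16A7 the 1 lower of 18, beside 3.31% and 2.75% of all genes. None of 6 genes of the pentose phosphate pathway was past 1.5-fold in either follicle. Between the follicles, the cumulus-like cells of AF76 held less VEGFA (17.9 CPM against 49.3 CPM), ANKRD37 (2.12 CPM against 8.18 CPM) and KDM3A (18.2 CPM against 30.4 CPM), which were the 3 lower of 14 passing low-oxygen genes, beside 7.73% of all genes lower and 6.57% higher.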

How the data were processed

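Cells of 2 porcine antral follicles were measured by 10x Genomics 3′ v3.1 chemistry. The authors deposited whole UMI counts per gene and barcode, made with CellRanger 6.0.2 on Sscrofa11.1, with no further filter or normalization. CellRanger counts a read only where it maps to 1 gene, so reads shared with near-identical copies, as of GAPDH, are lost.

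Here the UMIs of a gene were added up by cluster and follicle and divided by all UMIs of those cells (CPM). The members and lists were chosen with earlier results of these data known. Members are named in the order of their role, and those past 1.5-fold by size among genes with at least 200 UMIs in a group. Since 1 group was enough, scarce genes high in the group with more UMIs passed more easily. Counts of higher and lower genes lean that way where the groups differ in UMIs. For the cycling-like and SCG2 clusters only some of the members past 1.5-fold are named. The correlated genes are the 10 of highest and 5 of lowest mean r. Of the CEMIP cluster, 3 members under 200 UMIs were named after their values were seen. Clusters came from Seurat 5.3.0 in R 4.3.3, by anchor integration over 2000 variable genes without the members, 40 components and the lowest resolution in steps of 0.02 that gave 6 clusters (0.2). Doublets were not removed; leaving out the 6.9% with the highest Scrublet score was an alternative. CPM has exact Poisson, shares Clopper-Pearson and ratios exact conditional intervals. Python 3.11.15, numpy 2.4.6, scipy 1.17.1, pandas 2.3.3, scanpy 1.11.5 and matplotlib 3.10.9 were used. The alternatives covered barcode filters, depth, scaling, the members summed, the fold and the clustering. With 1 library per follicle no test was possible. Correlations, variances and PDK4 groups used counts thinned to 5000 UMIs, without the 19 and 105 cells of AF75 and AF76 below that depth.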

Additional observations from a re-analysis of the deposited data

Results flagged for a closer look

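BNIP3 went opposite ways in the follicles. Its level in cumulus-like cells was 1.70 times that in mural-like cells in AF75 (128.1 CPM against 75.4 CPM) and 0.874 times in AF76 (72.7 CPM against 83.1 CPM), with counting intervals of 1.63 to 1.77 and 0.815 to 0.936. The difference was not tested, since each follicle is 1 library.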

How the results depend on the processing

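The module log2 ratio of AF76 over AF75 was -0.14 and stayed below 0 in all 12 alternatives. It was -0.13 with all deposited barcodes, -0.15 with cells thinned, -0.16 as the mean of per-cell CPM, -0.12 without mitochondrial and ribosomal UMIs, -0.23 as the median of members and -0.16 with the members by identifier added. In alternatives chosen after seeing the data it was -0.31 without PDK4 and -0.12 without the CEMIP cluster. Of the 27 members 10 were lower and 2 higher at the lower fold tried, 2 were lower at a fold of 2, 7 were lower without the CEMIP cluster, and 1 was higher, PFKM, by the mean of per-cell CPM. The shares of all genes past the fold were not counted in these alternatives. HK2, SLC16A3, LDHA and HIF1A stayed at least 1.5-fold lower in all 8 alternatives that recomputed them, and PFKP in 5, with log2 ratios from -0.89 to -0.47.

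The log2 ratio of the module in cumulus-like over mural-like cells was 0.45 for AF75 but 0.10 for AF76. In that order it was 0.49 and 0.11 with doublets left out, 0.447 and 0.0904 at a mitochondrial limit of 10%, 0.47 and 0.11 with cells thinned, 0.47 and 0.11 from per-cell CPM, 0.44 and 0.0864 without mitochondrial and ribosomal UMIs, 0.50 and 0.0741 without GAPDH, 0.76 and 0.23 as the median of members, 0.51 and 0.11 with members by identifier, and 0.77 and 0.25 without PDK4. With 500 to 6000 genes it was 0.49 in AF75 and reversed to -0.11 in AF76, and the cause was not tested. In AF75 it was 0.46 without integration, 0.86 at a resolution of 0.8, which left 416 of its 2293 cumulus-like cells, and 0.40 with the members kept among the variable genes. AF76 then had 19 cumulus-like cells without integration and 11 at that resolution, too few for a value. No paired analysis was possible because each follicle is 1 library and no test was made. Members under 20 CPM rest on few UMIs in small clusters, and depth limits them there.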
